A study of Saccharomyces cerevisiae W303 with 24 samples.

Results

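The genes described here encode the proteins of the small subunit of the yeast ribosome. They were taken by name, as every gene whose symbol is RPS followed by a digit, and the rule found 56 such genes among the 6176 nuclear open reading frames on the array. Each was represented by 1 probe, printed in 2 spots. Of the 56, 48 formed 24 pairs of paralogs (an A and a B copy, always on different chromosomes) and 8, among them RPS2, RPS3, RPS12, RPS20 and RPS31, had no paralog. The study grew haploid budding yeast of the W303 background in rich medium (YEPD) at 30 degrees and hybridised total RNA to 24 arrays of 2 colours. There were 12 arrays of disomes, haploids that carry an additional copy of 1 chromosome (each of the 16 except III, IV, VI and VII), and 12 arrays of disomes-ubp6Δ, which carry the same additional chromosomes and lack UBP6, the gene of a deubiquitinase bound to the proteasome. Each strain was 1 array, all labelled day 1, and the reference on every array was labelled as wild-type. The study's strain list gives MATa haploids in which the additional chromosome is kept by HIS3 and KanMX6 markers and in which UBP6 is replaced by CaURA3. The sources do not say that the strains come from independent isolates, and p-values therefore measure the spread between these strains.

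Ribosomal protein genes are transcribed together through Rap1, Fhl1, Ifh1 and Sfp1 under control of TORC1 and protein kinase A, and as a group they fall in the environmental stress response. Most yeast ribosomal proteins are encoded by a pair of nearly identical genes that arose in a genome duplication, and many of these genes carry introns. Some small-subunit proteins are known to act on their own transcripts. Rps9 lowers the splicing of RPS9A, Rps14 binds the pre-mRNA of RPS14B and represses it, and Rps28 promotes the decapping of RPS28B mRNA through Edc3. An intron of RPS22B holds a hairpin that the nuclease Rnt1 can cut. A disome that carries only the A or only the B copy of a pair therefore shows both the duplicated copy and the copy that stayed single.

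All values are log2 ratios of strain over reference. On the arrays of disomes-ubp6Δ the labels put the strain in Cy5, as in the disomes, but the duplicated chromosome had a negative mean as labelled on 12 of 12 of these arrays and on 0 of 12 disome arrays, so the sign was turned on those 12. Read as labelled, higher and lower would change places in the disomes-ubp6Δ. After this step the labelled chromosome had the highest mean of all chromosomes on every array, from 0.68 to 0.99 in the disomes and from 0.59 to 0.98 in the disomes-ubp6Δ. UBP6 had a signal of 1235 to 3924 in the disomes and of 24.2 to 268 in the disomes-ubp6Δ, and on the latter arrays the reference channel was also low, from 12.9 to 65.1 (1842 to 4474 on the disome arrays). The reference RNA thus differed between the genotypes. RPS probes were bright: their median reference signal was 13891 to 24724 on the disome arrays and 57319 to 80853 on the others, at or above the 95.1 percentile of all genes on each array. Of 1344 possible values 1323 were measured, and 43 genes had all 24. Missing values came from spots the scanner software marked as outliers, 0 to 37 of 112 RPS spots on a disome array and 0 on the others. RPS3 was measured on 8 disome arrays, fewer than any other member. The 24 arrays lay on 4 slides. Slide 1 held 8 disomes (I to XII), slide 2 held 3 (XIII, XIV and XV), slide 3 held disome XVI with 4 disomes-ubp6Δ (I, II, V and VIII), and slide 4 held the other 8 disomes-ubp6Δ. The extent to which the probe of one paralog also binds RNA of the other was not measured.

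**Figure D1:**
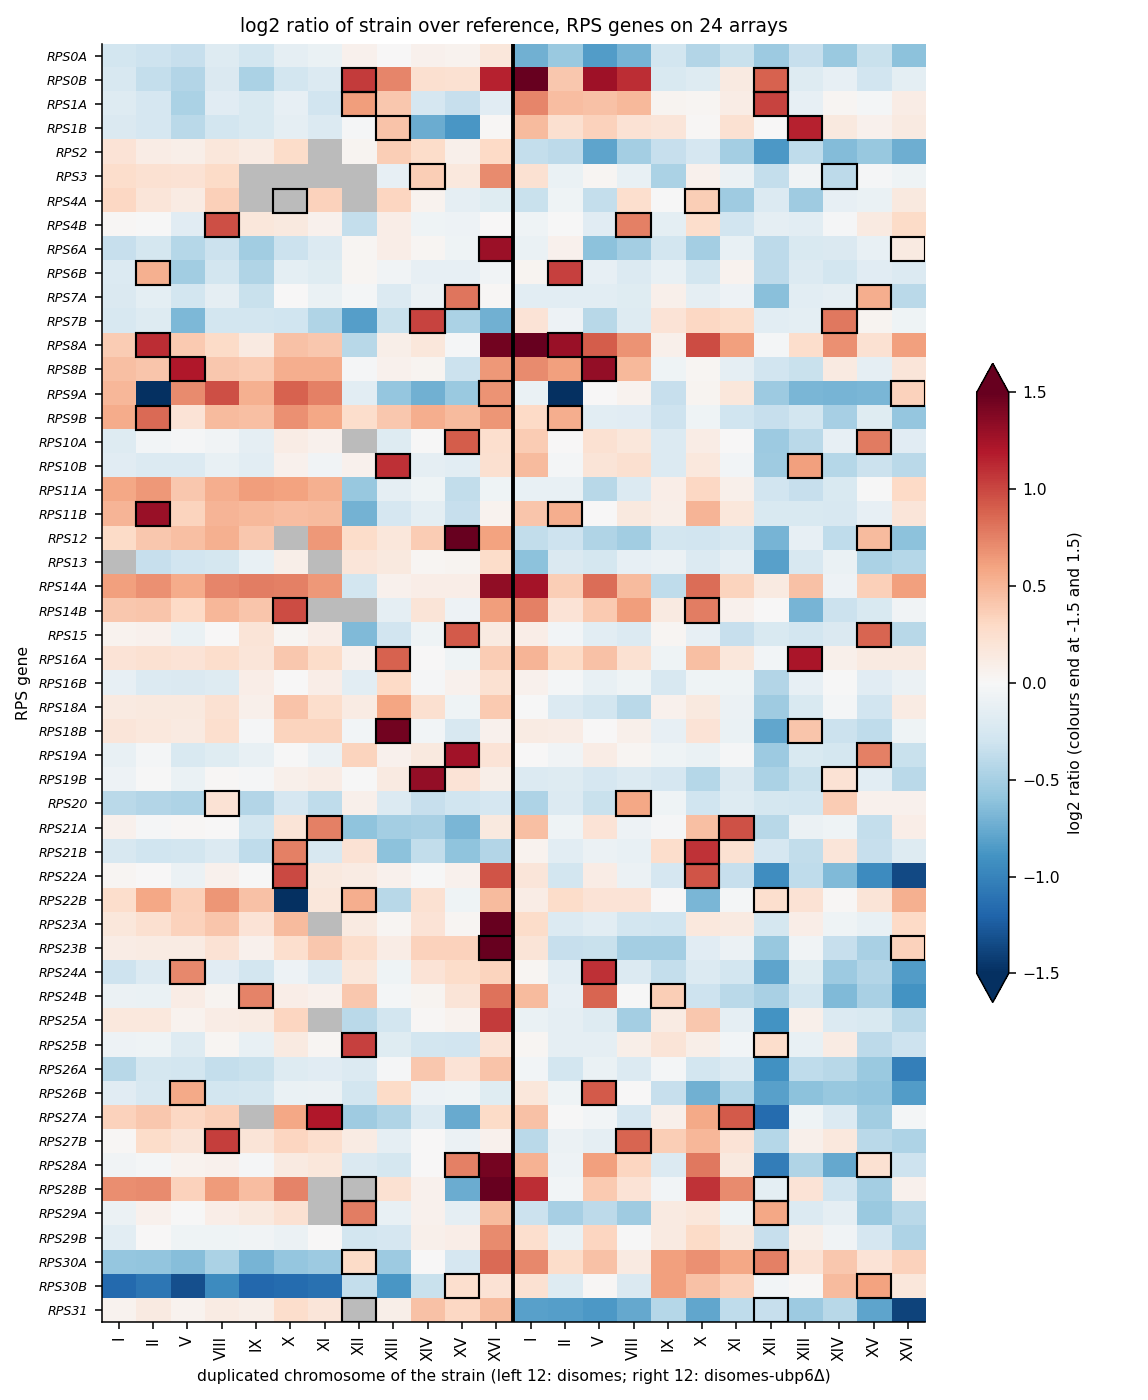
Log2 ratio of strain over reference for RPS genes (rows) on the 24 arrays (columns, named by the duplicated chromosome, disomes at left and disomes-ubp6Δ at right). Black frames mark genes on the duplicated chromosome of that strain and grey cells were not measured; most framed cells are red, while RPS9A in both strains with 2 copies of chromosome II (-2.45 and -3.86) and RPS22B in disome X (-1.69) are deep blue.

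The RPS copies on a duplicated chromosome were raised close to the added gene dose. Of the 56 genes, 44 lay on a chromosome duplicated in some strain and 41 of these were measured on both of their own arrays (RPS4A, RPS28B and RPS31 were not). The copy-number response compares these 2 arrays with the arrays in which the gene was single, allowing for genotype, and a response of 1 is a doubling. Over the 41 genes it averaged 0.87 ± 0.28 (SD, n = 41 genes) with a median of 0.88, or 1.84-fold. Over all 4221 genes that could be tested the median was 0.91. The response passed the test above 0 for 34 of the 41, against 80.2% of all genes (limma with Benjamini-Hochberg adjustment, as in all tests below). Above 1, 0 of the 41 passed with limma's adjusted p, against 0.687% of all genes. Without adjustment 1 of the 41 did, against 161 of the 4221.

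High responses included those of RPS23B (1.5 ± 0.23, SE), RPS22A (1.13 ± 0.28), RPS7B (1.12 ± 0.18) and RPS24A (1.11 ± 0.20), and 0 of these differed from 1 (adjusted p of 0.271 to 0.889). Rps23 contributes to decoding accuracy, Rps7 to maturation of the small subunit. By strain, the duplicated RPS genes averaged 0.72 (disome XII, 6 genes) to 1.51 (disome XVI, 3 genes) in the disomes. In the disomes-ubp6Δ they averaged 0.20 (disome XIV-ubp6Δ, 3 genes) to 1.12 (disome V-ubp6Δ, 3 genes). Of the members without a paralog, RPS12 (1.06 ± 0.14) and RPS15 (1.01 ± 0.16) were near a doubling, and RPS20 had a response of 0.62 ± 0.16.

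RPS3 was the only member whose response differed from 1. It encodes a protein at the entry of the mRNA channel and lies on chromosome XIV. Its ratio was 0.37 in disome XIV, against a lowest value of -0.12, a median of 0.23 and a highest value of 0.71 in the 7 other disomes measured. It was -0.39 in disome XIV-ubp6Δ, against -0.48, -0.06 and 0.23 in the 11 others. Both values thus lay inside the range of strains with 1 copy. The response was -0.10 ± 0.17, below 1 with an adjusted p of 0.000954, where 2.87% of all genes passed below 1 and 3.55% in either direction. In the same 2 strains the other RPS genes of chromosome XIV were higher, RPS7B at 1.01 and 0.79 and RPS19B at 1.32 and 0.22. All genes of chromosome XIV averaged 0.91 in disome XIV and 0.59 in disome XIV-ubp6Δ. The latter was the lowest mean of a duplicated chromosome on any array, so a full doubling was not the typical response there. Without the disome XIV-ubp6Δ array the response of RPS3 was 0.12 and no longer differed from 1 (adjusted p = 0.103).

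The next lowest responses, RPS22B (0.31 ± 0.35), RPS28A (0.46 ± 0.36), RPS30A (0.50 ± 0.25) and RPS9B (0.58 ± 0.16), did not differ from 1 (adjusted p of 0.156 to 0.504). The unadjusted count below 1 was 3 of 41, against 525 of all 4221 genes. Across the 41 genes, which share the same arrays, the response and the reference signal had a Pearson's r of 0.03 and a Spearman's rho of 0.11, given as a description. With slide as a random block RPS9B also fell below 1 (0.50 ± 0.14, adjusted p = 0.038).

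**Figure D2:**
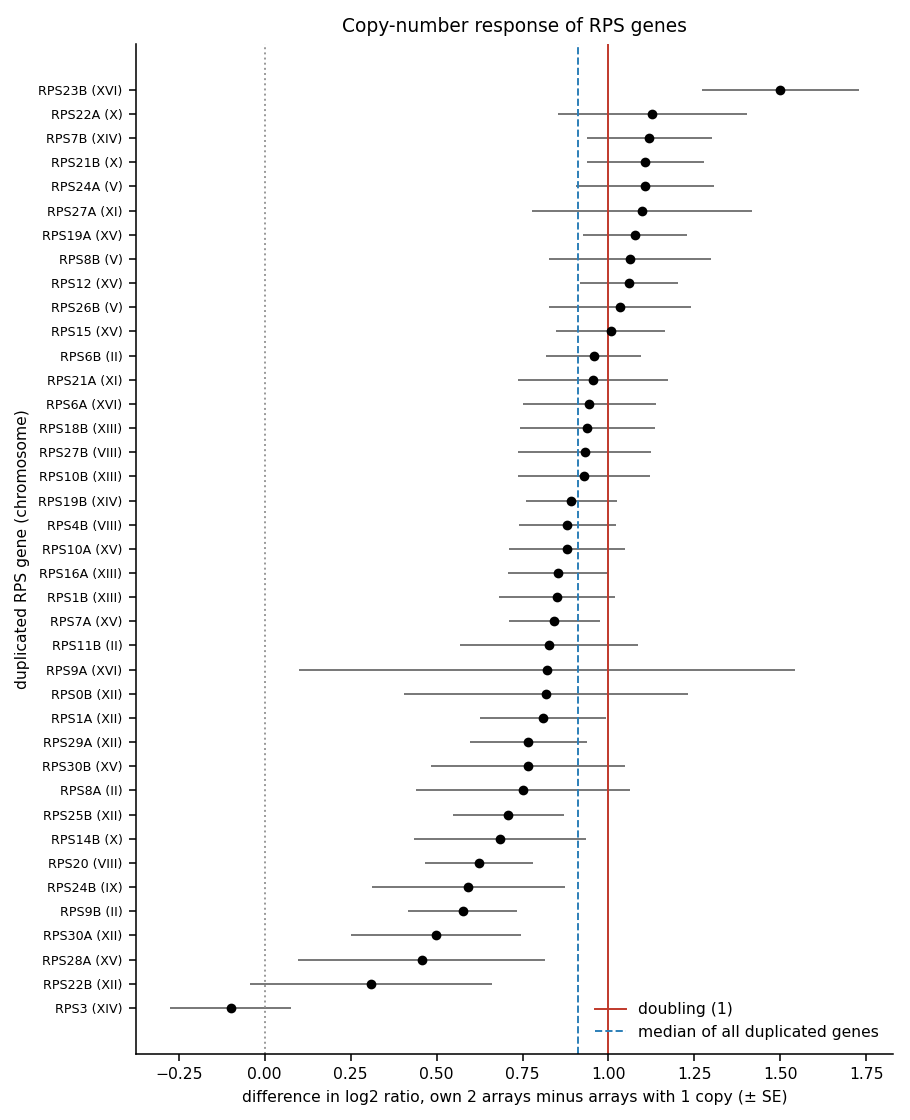
Copy-number response of testable RPS genes (difference in log2 ratio between their own 2 arrays and the arrays with 1 copy, ± SE), sorted by size, with the chromosome in brackets. The red line is a doubling and the blue dashed line the median of all duplicated genes (0.91); RPS3 lies at -0.10 while the others lie between 0.31 and 1.5.

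The copy left single mostly stood close to its level in other strains when its paralog was duplicated. In 38 cases a member on an unduplicated chromosome could be followed in the strains in which its paralog was duplicated, and its response there had a median of 0.09 (0.88 for the duplicated copies themselves), with 25 of 38 within 0.3 of 0. The mean was -0.07 ± 0.67 (SD, n = 38), and 0.05 without RPS9A and RPS22B. In all, 3 passed the test, 2 lower and 1 higher, or 7.89% of the 38, where 0.5% of 64061 combinations of any gene and any disome of another chromosome passed. Of the 572 other combinations of an RPS gene and a disome, 0 passed with limma's adjusted p and 23 had an unadjusted p of 0.05 or less. For large-subunit pairs the same test called 3 of 42 copies, all lower. An unadjusted p of 0.05 or less was reached by 3 higher and 5 lower RPS copies.

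**Figure D3:**
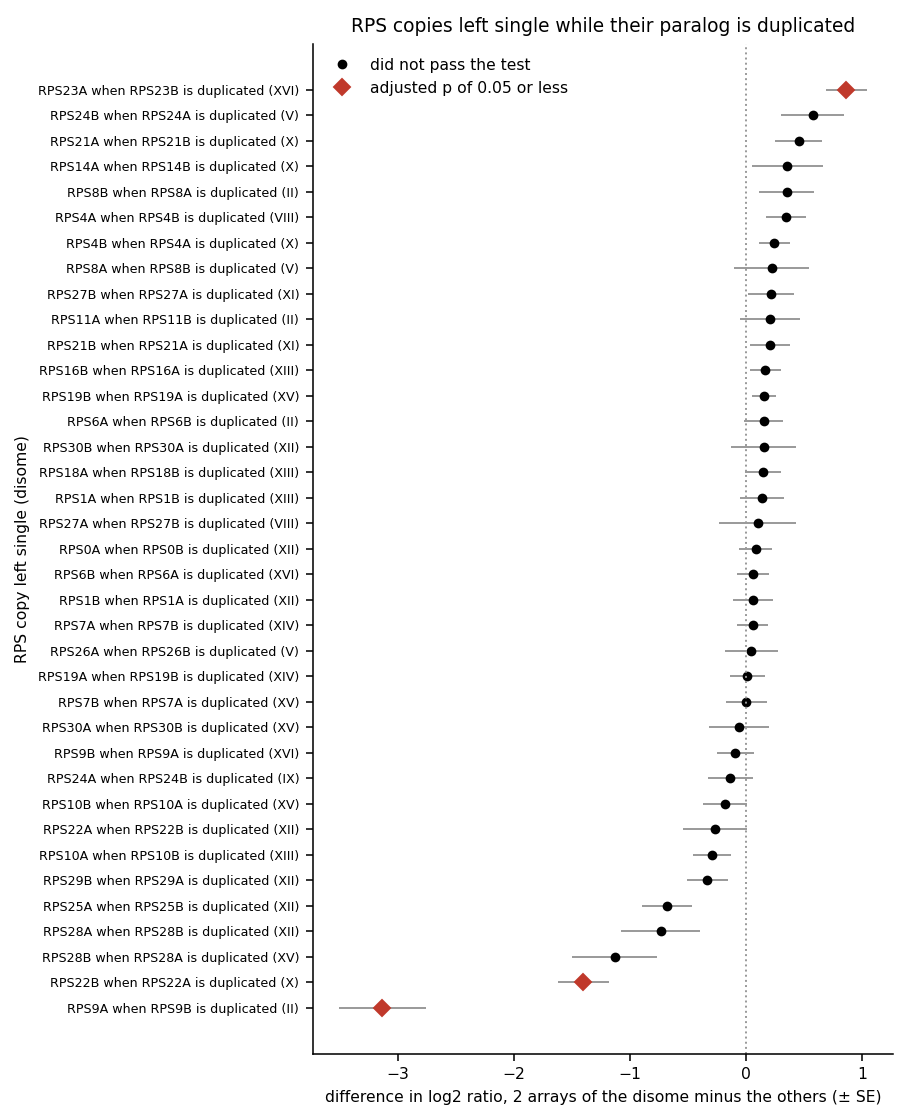
Response of RPS copies left single in the 2 strains in which its paralog was duplicated (difference in log2 ratio from the other strains, ± SE). Red diamonds passed the test: RPS9A at -3.14, RPS22B at -1.40 and RPS23A at 0.87; most others lie within 0.3 of 0.

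RPS9A fell in the strains with an additional RPS9B. Rps9 is a protein bound early to the small-subunit RNA; RPS9B lies on chromosome II and RPS9A on chromosome XVI. The ratio of RPS9A was -2.45 in disome II, while in the 10 other disomes with 1 copy of each gene the lowest, median and highest values were -0.72, 0.51 and 0.97. In disome II-ubp6Δ it was -3.86, against -0.70, -0.22 and 0.17. Both disome II strains thus lay below every other strain of their genotype. The response was -3.14 ± 0.37, or 8.78-fold lower (adjusted p = 0.000117).

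The strain signal lay below that of every other strain of the same slide and genotype, and the reference signal was high among theirs. RPS9A gave 647 in disome II and 1555 to 3352 in the 7 other disomes of slide 1. The reference gave 3515 on the disome II array, 3707 on that of disome XII and 1007 to 1816 on the rest. In disome II-ubp6Δ it gave 869 with 12645 in the reference, where the 3 other disomes-ubp6Δ of slide 3 had 9416 to 10992 in the strain and 10070 to 10893 in the reference. Relative to the mean of the same slide and genotype, RPS9A stood at -3.05 and -3.85. RPS9B itself was 0.85 and 0.54 in these strains, a response of 0.58 ± 0.16. In the opposite direction, RPS9B was at 0.66 in disome XVI and -0.58 in disome XVI-ubp6Δ, in which RPS9A was duplicated, and its response of -0.09 ± 0.16 did not pass the test (adjusted p = 0.946). Apart from chromosome II the ratios of RPS9A also varied with the slide, from -0.72 to -0.56 in the 3 disomes of slide 2 and from -0.16 to 0.97 in the 7 of slide 1.

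RPS22B fell in the strains with an additional RPS22A, which lies on chromosome X. Its ratio was -1.69 in disome X, where the 10 other disomes with 1 copy of each had a lowest, median and highest value of -0.42, 0.31 and 0.66. In disome X-ubp6Δ it was -0.68, against -0.03, 0.20 and 0.53. The 2 strains again lay below all others of their genotype, and the response was -1.40 ± 0.22, or 2.64-fold lower (adjusted p = 0.00225). Relative to the mean of the same slide and genotype RPS22B stood at -2.10 and -0.83. Its signal in disome X was 3783, with 12167 in the reference. The 6 other disomes of the slide with 1 copy of RPS22B had 5631 to 11446 and 4173 to 8153. The strain signal thus lay below that range and the reference signal above it. Without the disome X array, which kept 1 of 2 spots of RPS22B, the response was -0.85 and did not pass (adjusted p = 0.545). RPS22A rose to 0.99 and 0.94 in these strains. In the opposite direction RPS22A had a response of -0.27 ± 0.28 where RPS22B was duplicated on chromosome XII, which did not pass (adjusted p = 0.885), and RPS22B itself had the lowest copy-number response after RPS3.

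RPS23A had a higher ratio in the strains with an additional RPS23B. Its ratio was 1.60 in disome XVI, against 0.03, 0.20 and 0.47 (lowest, median and highest) in the 10 other disomes measured. In disome XVI-ubp6Δ it was 0.30, against -0.30, -0.11 and 0.27. The response was 0.87 ± 0.18 (adjusted p = 0.0214). The strain signal of RPS23A in disome XVI, 31485, lay inside the range of the other disomes (11918 to 35591). Its reference signal there, 10393, was near the low end of theirs (9968 to 34994). A higher strain signal and a lower reference signal were thus not told apart. RPS23A and RPS23B encode the same protein. Without the disome XVI array the response was 0.36 (adjusted p = 0.9), and with the duplicated chromosome as a random block the adjusted p was 0.157.

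The array of disome XVI stood apart for other RPS genes as well. RPS23B was at 2.58 on it and at 0.34 in disome XVI-ubp6Δ, and it was the only member whose copy-number response differed between the genotypes, by -1.73 ± 0.30 (adjusted p = 0.01, where 0.144% of 4181 genes passed). This test rests on 1 own array per genotype. The strain signal of RPS23B on the disome XVI array, 31919, lay inside the range of the other disomes (25517 to 54141), while its reference signal of 5354 lay below theirs (23695 to 41138). RPS28B, which is on chromosome XII, was at 2.13 on this array with a reference signal of 4033 against 8145 to 21555 elsewhere. The median of the RPS genes in single copy was 0.27 in disome XVI, the highest of the 12. There 43 of 53 were above 0, against 18 of 53 in disome XVI-ubp6Δ. RPS8A (1.45), RPS28A (1.44) and RPS14A (1.33), whose partners were not duplicated, were among the high ones in disome XVI. Disome XVI was the only disome on its slide, so strain and slide cannot be told apart for it.

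**Figure D4:**
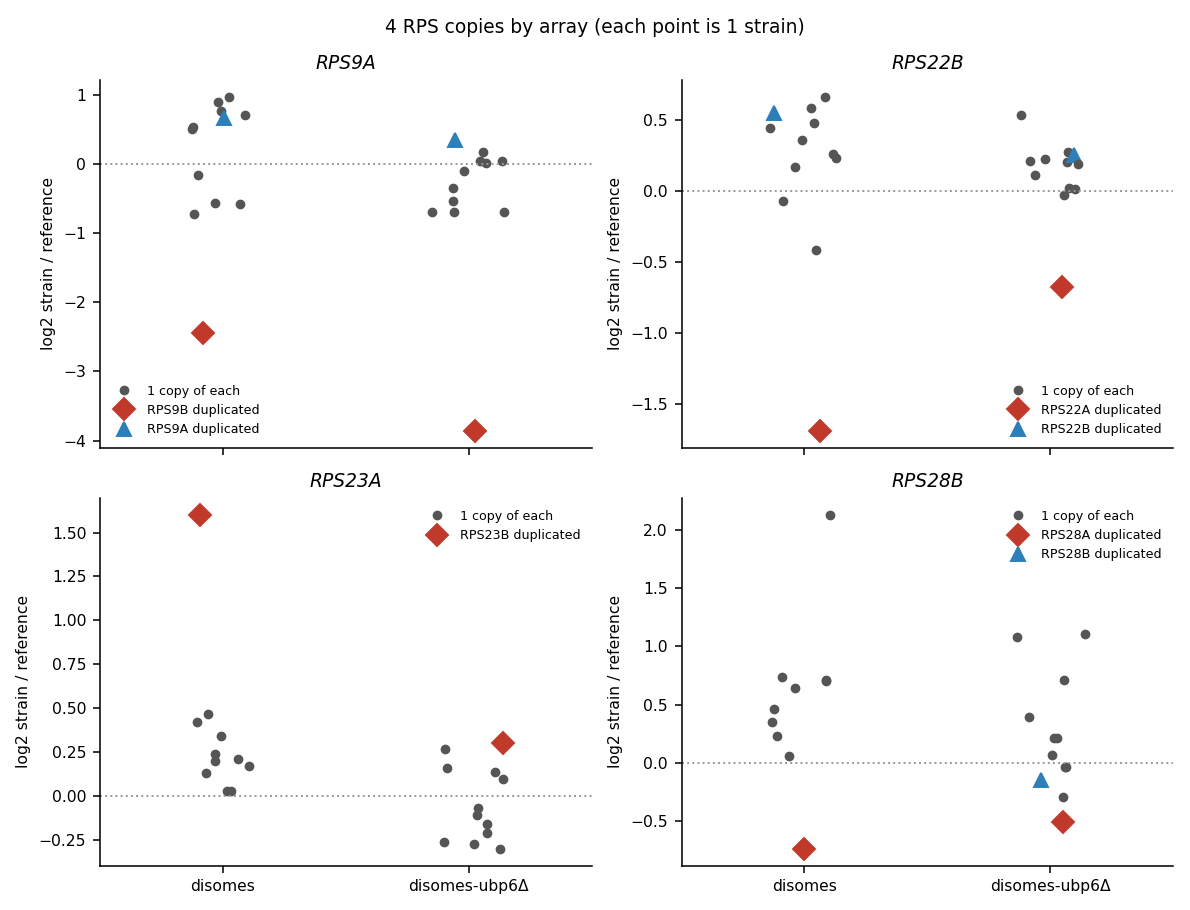
Log2 ratio of RPS9A, RPS22B, RPS23A and RPS28B by genotype, 1 point per strain (values are unadjusted, so strains of different slides are mixed). Red diamonds are the strains in which the paralog was duplicated, blue triangles those in which the gene itself was, and grey points the rest; the diamonds lie below all grey points for RPS9A, RPS22B and RPS28B and above them for RPS23A.

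For 4 further copies both strains lay outside the range of their genotype although the response did not pass the test. How often other genes did so in a disome of another chromosome was not counted, so this is a description only. RPS28B was at -0.74 in disome XV and -0.51 in disome XV-ubp6Δ, with an additional RPS28A, where the other strains had medians of 0.64 and 0.21. Its response was -1.13 ± 0.37 (adjusted p = 0.241). Relative to the mean of the same slide and genotype RPS28B stood at -0.89 and -0.80. Its reference signal in disome XV, 21555, lay above that of the other disomes (4033 to 20916). Its strain signal there, 12838, lay inside their range (12653 to 34973). RPS25A was at -0.40 and -0.90 in the disome XII strains (response -0.68 ± 0.21, adjusted p = 0.206), with an additional RPS25B, a protein needed for initiation at viral internal entry sites. Other RPS genes without a duplicated partner stood as low in these 2 strains, among them RPS27A (-0.89 ± 0.27) and RPS8A (-0.74 ± 0.28), which did not pass either, and in disome XII-ubp6Δ 45 of 48 RPS genes were below 0. RPS4A (0.35 ± 0.17) and RPS19B (0.15 ± 0.10) were the other 2, on the high side.

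Most remaining copies gave small values in either direction. RPS28A, the reciprocal of RPS28B, had a response of -0.73 ± 0.34 in the disome XII strains, and RPS29B one of -0.33 ± 0.18 in the same strains. RPS24B stood at 0.58 ± 0.27, from 0.11 in disome V and 0.87 in disome V-ubp6Δ, and RPS21A at 0.46 ± 0.21. RPS14A, the partner of the self-regulated RPS14B, was 0.76 and 0.84 in the disome X strains, a response of 0.36 ± 0.30. RPS8B (0.35), RPS4B (0.25), RPS8A (0.22), RPS27B (0.22), RPS11A (0.21), RPS21B (0.21), RPS16B (0.17), RPS6A (0.15), RPS30B (0.15), RPS18A (0.15), RPS1A (0.14) and RPS27A (0.10) were among those above 0.1. RPS0A, RPS1B, RPS6B, RPS7A, RPS7B, RPS19A, RPS26A, RPS30A and RPS9B lay between -0.09 and 0.09, and RPS24A (-0.14), RPS10B (-0.18), RPS22A (-0.27) and RPS10A (-0.29) were lower. None of the copies in this paragraph passed the test (adjusted p of 0.541 or more).

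In strains in which they were single, RPS genes were split between higher and lower. In the disomes 11 of 56 were higher than the reference, 12 were lower and 33 were not called, a share of 41.1% against 39.4% of all 5852 genes tested. Their median was 0.01 (all genes -0.03). With each array centred on its single-copy genes the split was 16 higher and 7 lower. The disome array medians were below 0 (-0.094 to -0.008), so centring moved all genes up. Calls over all genes on centred arrays were not counted, here or below, so these splits do not set RPS genes apart. Large-subunit genes gave 10 higher and 15 lower of 80. In bulk RNA a change in the share of other transcripts and a change per cell cannot be told apart.

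The higher members included RPS14A (0.51 ± 0.12, SE, n = 12), which encodes a protein of the platform, with a lowest value of -0.28 in disome XII and a highest of 1.33 in disome XVI. RPS9B (0.48 ± 0.05) was above 0 in 11 of 11 disomes, from 0.21 to 0.68. RPS12 (0.41 ± 0.06), a protein of the beak, was above 0 in 10 of 10. RPS23A (0.35, and 0.22 without disome XVI), RPS8B (0.29), RPS18A (0.23), RPS23B (0.21), RPS31 (0.20), RPS16A (0.20), RPS2 (0.19) and RPS14B (0.30) were the others.

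The lowest member was RPS30B, whose protein is a small basic subunit near the decoding site, at -0.85 ± 0.13. Its values ran from -1.32 in disome V to 0.22 in disome XVI with a median of -1.08, and 10 of 11 were below 0. RPS30A (-0.37), RPS7B (-0.43, below 0 in 11 of 11), RPS21B (-0.31), RPS20 (-0.31), RPS1B (-0.30), RPS6A (-0.21), RPS6B (-0.19), RPS1A (-0.19) and RPS7A (-0.14) were also among the lower members. RPS6 is the small-subunit protein phosphorylated under TORC1. RPS30A, RPS23A and RPS6A lost their calls when some single disomes were left out, and without disome I 8 rather than 12 members were lower. With slide as a random block only RPS9B (0.50, adjusted p = 0.0162), RPS12 (0.42, adjusted p = 0.0295) and RPS7B (-0.47, adjusted p = 0.0394) stayed called.

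The disomes-ubp6Δ gave more members below the reference than above it. Of the 56, 5 were higher, 18 lower and 33 not called (41.1%, against 35.1% of all 6005 genes). Among all genes 13.9% were higher and 21.2% lower, and the RPS median was -0.11 against -0.04. Centred arrays gave 6 higher and 13 lower, and large-subunit genes 13 and 21 of 80.

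RPS31 was the lowest. It encodes a fusion of ubiquitin with a small-subunit protein and is a source of free ubiquitin. Its values ran from -1.39 in disome XVI-ubp6Δ to -0.38 in disome XI-ubp6Δ with a median of -0.78, and its mean was -0.73 ± 0.09 (n = 11, adjusted p = 0.000144). RPS2 (-0.53 ± 0.06) and RPS0A (-0.52 ± 0.06), both of which encode proteins needed for export or maturation of the small subunit, were below 0 in 12 of 12 strains. RPS12 (-0.39, 0 of 11 above 0), RPS22A (-0.45), RPS26B (-0.44), RPS26A (-0.37), RPS24A (-0.36) and RPS13 (-0.31) were also low. RPS26 sits at the mRNA exit and is delivered by Tsr2. Smaller decreases were those of RPS23B, RPS19B, RPS6A, RPS29A, RPS9B, RPS7A, RPS15 and RPS6B, with means between -0.29 and -0.17.

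The higher members were RPS8A (0.59 ± 0.12), RPS14A (0.43), RPS30A (0.42 ± 0.07, above 0 in 11 of 11), RPS16A (0.21) and RPS1B (0.19). RPS8A was highest in disome I-ubp6Δ at 1.52 and lowest in disome XII-ubp6Δ at -0.03. Without disome I-ubp6Δ, 3 rather than 5 were higher, RPS16A and RPS1B losing their calls. With slide as a random block RPS8A, RPS30A, RPS31, RPS2, RPS0A, RPS12 and RPS19B stayed called.

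The strain was in Cy5 on the disome arrays and, by the check above, in the other colour on the disome-ubp6Δ arrays, so a colour bias of a probe would enter the genotypes with opposite signs. In all, 6 members were called in the same direction in both, including RPS14A and RPS16A higher and RPS6A, RPS6B and RPS7A lower. Another 7 were called in opposite directions. RPS2, RPS9B, RPS12, RPS23B and RPS31 were higher in the disomes and lower in the disomes-ubp6Δ, and RPS1B and RPS30A were the reverse. Calls shared or opposed between the genotypes were not counted over all genes, so these counts do not set RPS genes apart.

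In the mean of each pair of strains such a bias would cancel only if it had the same size on both arrays, which was not tested. More members were called lower than higher in this mean, as among all genes. This mean was added after the values were seen. Of the 56, 3 were higher, 18 lower and 35 not called, with 38.1% of 5771 genes called (13.9% higher, 24.2% lower), and the RPS median was -0.05 as against -0.05 for all genes. The higher ones were RPS14A (0.47 ± 0.09, above 0 in 11 of 12 pairs), RPS8A (0.45 ± 0.10) and RPS16A (0.20 ± 0.05, 11 of 11). Among the lower were RPS30B (-0.34), RPS0A (-0.31 ± 0.05, below 0 in 12 of 12), RPS26B (-0.29) and RPS31 (-0.26), with RPS6A (-0.24), RPS26A (-0.23), RPS20 (-0.23) and RPS7B (-0.22). Centred arrays gave 6 higher and 14 lower, and leaving out the pair of chromosome XII, XIII or XV gave 5 higher each.

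The paired difference asks which members stood differently to their reference without UBP6. Of the 56 genes, 6 were higher in the disomes-ubp6Δ, 13 lower and 37 not called, a share of 33.9% against 34.2% of all genes. The RPS median was -0.16 and that of all genes -0.02. Genotype, colour of the strain and reference RNA changed together in this comparison and cannot be told apart.

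The lower members were led by RPS31 (-0.93 ± 0.11, lower in 11 of 11 pairs, adjusted p = 7.48e-05). Its values did not overlap, from 0.05 to 0.47 in the disomes and from -1.39 to -0.38 in the disomes-ubp6Δ. RPS12 (-0.81 ± 0.09, 10 of 10) and RPS2 (-0.71 ± 0.07, 11 of 11) did not overlap either. Overlap between the genotypes was not counted over all genes, so it does not set these members apart. RPS9B (-0.72) and RPS9A (-0.59) were both lower, as were RPS23B (-0.50) and RPS23A (-0.40). RPS22A (-0.57), RPS0A (-0.42), RPS18A (-0.37), RPS29A (-0.35), RPS19B (-0.32) and RPS18B (-0.21) made up the rest.

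The higher members were RPS30B (1.02 ± 0.15, higher in 10 of 11 pairs) and RPS30A (0.79 ± 0.15), the copies of 1 family, then RPS1B (0.49), RPS7B (0.43), RPS1A (0.40) and RPS21A (0.20). Rps1 lies near the platform of the subunit. In the 8 pairs whose disome was on slide 1, 7 members were higher and 11 lower. Without the pairing 5 were higher and 15 lower, and 16 of the 19 paired calls were shared, with RPS9A, RPS18B and RPS21A lost.

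**Figure D5:**
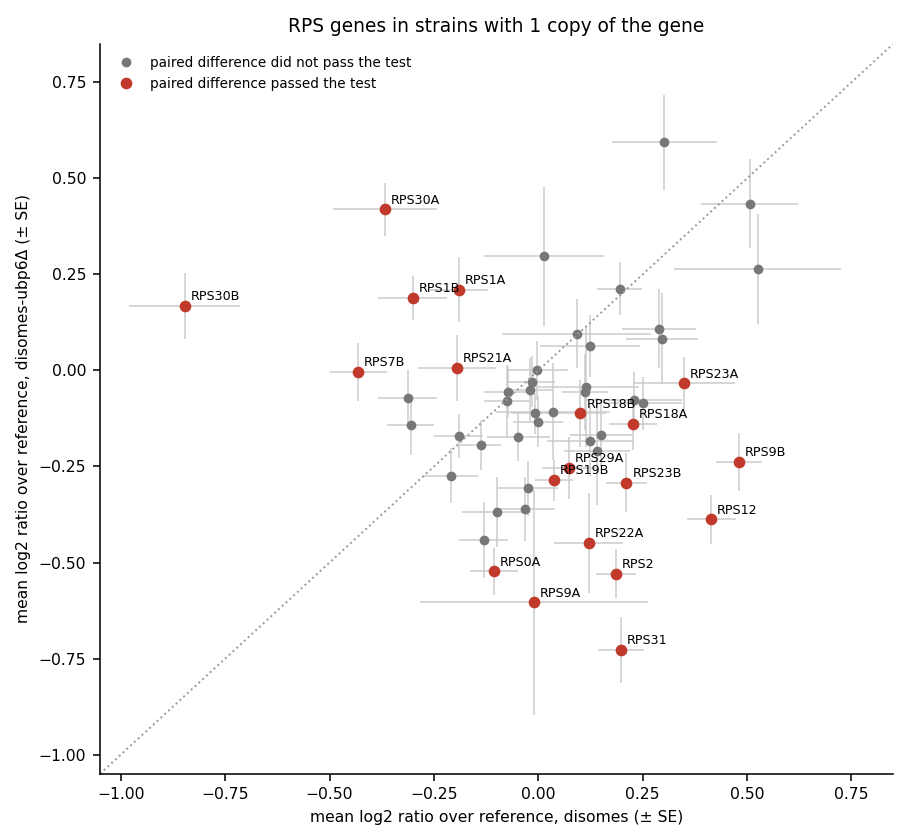
Mean log2 ratio over the reference of RPS genes in the disomes (x axis) and the disomes-ubp6Δ (y axis), strains with 1 copy of the gene, with SE bars. Red points passed the test of the paired difference and the dotted line is equality; RPS30A and RPS30B lie above the line, RPS31, RPS12 and RPS2 below it, and the 2 genotypes used opposite colours.

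Both copies of a pair had a mean of the same sign in 16 of 24 pairs in the disomes, and in 17 of 24 when UBP6 was absent. Over these pairs the means of the A and the B copy had a Pearson's r of 0.71 in the disomes, 0.32 without UBP6 and 0.64 in the paired difference. These describe gene pairs that share arrays, with probes for near-identical RNAs. In the disomes both copies were higher for 2 pairs (RPS14 and RPS23) and lower for 5 (RPS1, RPS6, RPS7 and RPS30 among them), and 1 copy alone was called higher for 4 and lower for 1. In the disomes-ubp6Δ both were lower for 2 pairs (RPS6 and RPS26), and 1 copy alone was called higher for 5 and lower for 9. In 0 of 24 pairs were the copies called in opposite directions, in either genotype or in the paired difference.

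Of the 8 members without a paralog, some stood above and some below the reference. In the disomes RPS2, RPS12 and RPS31 were higher and RPS20 lower. RPS3 (0.25, n = 7), RPS13 (-0.02) and RPS15 (-0.05) were not called. In the disomes-ubp6Δ 5 of the 8 were lower, namely RPS2, RPS12, RPS13, RPS15 and RPS31. RPS3 (-0.09) and RPS20 (-0.14) were not called. The paired difference called RPS2, RPS12 and RPS31, all lower, and gave -0.26 for RPS3, -0.27 for RPS13, -0.13 for RPS15 and 0.16 for RPS20.

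The members also varied between strains. In the disomes the median of the single-copy RPS genes ran from -0.07 in disome XV to 0.27 in disome XVI, and in the disomes-ubp6Δ from -0.43 in disome XII to 0.12 in disome I. The corresponding median of all genes ran from -0.09 to -0.01 and from -0.07 to -0.02. Disome XII had an RPS median of -0.02. Within an array the RPS genes spread with an SD of 0.24 to 0.59. Between slides 1 and 2 of the disomes, 25 members had slide means of opposite sign and 11 had values that did not overlap. Between slides 3 and 4 of the disomes-ubp6Δ these counts were 18 and 6. The same counts were not made over all genes, so they do not set RPS genes apart. The median size of the difference between slide means was 0.20 for RPS genes in both genotypes, and 0.27 and 0.23 for all genes. Slides held different strains, so strain and slide cannot be told apart in these values.

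Regulators of ribosomal protein genes and factors that mature the small subunit were read from lists of 16 and 21 genes. Among regulators 3 were higher and 6 lower in the disomes, where 14.8% of all genes were higher and 24.6% lower, and their median was -0.13 (all genes -0.03). CRF1, described as a corepressor of these genes, was at 0.47, FHL1, the forkhead factor at their promoters, at 0.43 and TPK2, a protein kinase A subunit, at 0.23, while HMO1 (-0.36), IFH1, the coactivator bound by Fhl1 (-0.36), and RAP1 (-0.31) were the lowest. In the disomes-ubp6Δ SCH9 (0.47), TPK2 (0.23) and SFP1 (0.23) were higher and UTP22 (-0.41) lower (13.9% and 21.2% of all genes). The paired difference called SCH9 (0.50), HMO1 (0.50) and RRP7 (0.40) higher and FHL1 (-0.64) and UTP22 (-0.18) lower (16.2% and 18% of all genes).

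Of the maturation factors 1 was higher and 8 lower in the disomes, FAP7 at 0.26 and, lowest, BUD23 (-0.89), a methyltransferase of the small-subunit RNA, ENP1 (-0.40) and SLX9 (-0.33). Of all genes 39.4% were called there, and the median of these factors was -0.12. In the disomes-ubp6Δ 8 were lower, where 35.1% of all genes were called, the lowest being TSR2, the chaperone of Rps26 (-0.47), ENP1 (-0.42) and EMG1 (-0.38). The paired difference called BUD23 (0.75) higher and 5 factors lower, led by FAP7 (-0.63), TSR2 (-0.41) and EMG1 (-0.38), where 34.2% of all genes were called. Of 2 other ribosome-associated proteins outside the RPS names, STM1 was lower in both genotypes (-0.22 and -0.28) and ASC1 was not called.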

How the data were processed

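Total RNA of 12 disomes and 12 disomes-ubp6Δ was hybridised against a reference on 2-colour Agilent yeast arrays (24 arrays, 4 slides). The authors extracted the images with Feature Extraction (10.7.1.1 per the file headers) at default settings, which gave the deposited processed signal intensity per colour, background-subtracted and dye-normalised, and its deposited log10 ratio. The deposited table of per-sample values is on a log2 scale and served as an alternative. It correlated with the spot ratios at 0.956 to 0.999 on disome arrays and at -0.999 to -0.986 on disome-ubp6Δ arrays. As labelled, same-numbered arrays of the groups correlated at -0.763 to -0.145 over all genes. The sign was turned on the disome-ubp6Δ arrays.

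Log2 ratios of processed intensities were averaged over the 2 spots of a gene, without control spots, outlier spots or spots that neither colour raised well above background. Symbols came from a RefSeq table matched on ORF names. All genes with at least 6 values were fitted with limma 3.58.1 (R 4.3.3). Each group was tested against 0, pairs of strains with the same chromosome by their difference, and copy-number and paralog responses by 2 arrays against the rest (at least 8) with genotype as a term. Genes on the duplicated chromosome of a strain were left out for that strain in all but the copy-number fit. P-values were adjusted over all genes (for paralogs, over all genes and disomes), and 0.05 or less was a call. Pairs followed the study, which compares genotypes by disome. Deviations of same-numbered arrays correlated at -0.055 to 0.641 (median 0.317), 11 of 12 above 0.1. The scripts were tested on simulated data.

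Named members were the 10 highest and lowest calls of each test measured in at least 8 strains, the extremes of the copy-number response, paralogs of duplicated copies, members without a paralog, and up to 3 called genes a direction of each pathway list. Other called members are named for completeness. A few members are counted but not reported by name here or drawn in the figures. The members, lists and tests were chosen with earlier results of these data known. Replicate number limits the precision, and array probes of paralogs may share signal.

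Alternatives were normexp background correction (offset 50) with loess, the deposited table, centred arrays, no filter on dim spots, outlier spots kept, saturated spots left out, own chromosome kept, slide or chromosome number as a random block, the largest slide alone, no pairing, and each strain left out.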

Additional observations from a re-analysis of the deposited data

Results flagged for a closer look

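A total of 19 members stood differently to their reference in the 2 genotypes by the test of the paired difference (limma, disome-ubp6Δ minus disome). The lower ones were RPS31 (-0.93), RPS12 (-0.81), RPS9B (-0.72), RPS2 (-0.71), RPS9A (-0.59), RPS22A (-0.57), RPS23B (-0.50), RPS0A (-0.42), RPS23A (-0.40), RPS18A (-0.37), RPS29A (-0.35), RPS19B (-0.32) and RPS18B (-0.21). The higher ones were RPS21A (0.20), RPS1A (0.40), RPS7B (0.43), RPS1B (0.49), RPS30A (0.79) and RPS30B (1.02). Genotype, colour and reference changed together in all of them. For 1 member, RPS23B, the copy-number response itself differed between the genotypes, by -1.73, with 1 own array in each and a low reference signal on the array of disome XVI.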

How the results depend on the processing

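Slide moved the counts most. With it as a random block the disomes had 2 RPS genes higher and 1 lower, and the disomes-ubp6Δ 2 higher and 5 lower, all of them also called without it; 8 arrays of slide 4 alone gave 2 higher in the disomes-ubp6Δ. Keeping values on the duplicated chromosome left 3 lower in the disomes and 9 lower in the disomes-ubp6Δ, since those values hold the added copy. Centring each array gave 7 lower in the disomes and 6 higher in the pair means, and the slide 1 pairs gave 5 higher in the pair means. The cause of these shifts was not tested. Leaving out each strain gave 10 to 13 higher and 8 to 12 lower members in the disomes, 3 to 6 and 13 to 18 in the disomes-ubp6Δ, 5 to 7 and 11 to 15 in the paired difference, and 3 to 5 and 17 to 18 in the pair means.

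For the paralogs, the replicate block (chromosome number as a random block) left 0 copies called higher, losing RPS23A (adjusted p = 0.157), and changed no other call. Without the disome array of each chromosome 1 copy was called lower and 0 higher, and without the disome-ubp6Δ array 2 and 1; the lone array was assumed to vary like the rest. The mean paralog response ran from -0.123 to -0.019 and its median from -0.028 to 0.151. For the copy-number response these fits gave means of 0.733 to 0.963, 26 to 30 genes above 0 and 0 to 1 below 1. Slide as a block gave 2 below 1. Without the pairing (no replicate block) the paired comparison lost RPS18B, RPS9A (adjusted p = 0.322) and RPS21A (adjusted p = 0.256). Of 784 values of single genes with a strain or array left out, 37 lost their call, and of 620 under other settings, 55; 0 reversed. Members with calls lost when a strain was left out included RPS30A, RPS23A and RPS6A in the disomes and RPS22A and RPS21A in the paired difference. Outlier spots limit RPS3, RPS4A, RPS13, RPS14B and RPS28B.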
